A study of Macaca mulatta with 252 samples.

Results

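ACAN, VCAN and HAPLN4 were described across the adult rhesus macaque brain. ACAN encodes aggrecan and VCAN encodes versican, both large chondroitin sulfate proteoglycans of the extracellular matrix, and HAPLN4 encodes a link protein that ties such proteoglycans to hyaluronan. The 3 genes were taken by symbol from the annotation of the array, out of 14133 genes with at least 1 probe set of a single symbol. Each was represented by its single-symbol probe set with the highest mean, and all 3 had a mean over the arrays above the median of all probe sets, the level required for testing.

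Tissue came from 3 male and 3 female adult animals and was hybridised to Affymetrix rhesus genome arrays. The 225 experimental arrays fell into 57 region groups, 54 of them with 4 arrays and 3 with 3 arrays, and each array of a group came from another animal. The groups were 50 layers of 10 neocortical areas, 4 fields of the hippocampus (the dentate gyrus, DG, with CA1 to CA3) and 3 divisions of the dorsal lateral geniculate nucleus (LGN), the visual relay of the thalamus. The areas were the primary motor (M1), somatosensory (S1), auditory (A1) and visual (V1) cortex, the secondary visual cortex (V2), the temporal areas MT and TE, and 3 frontal areas: anterior cingulate gyrus (ACG), orbitofrontal cortex (OFC) and dorsolateral prefrontal cortex (DLPFC). Layer 4 was sampled undivided in 6 areas and as sublayers 4A, 4B, 4Ca and 4Cb in V1, and M1, ACG and OFC were sampled in layers 2, 3, 5 and 6. The males are called A to C and the females D to F. Most groups held male A, male C, female D and female E. Ages and strains were not in the labels used here.

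Perineuronal nets are dense sheets of matrix that wrap the cell body and proximal dendrites of certain neurons. They are best known around fast-spiking, parvalbumin-containing interneurons of the cortex, and they also surround some large projection neurons, pyramidal cells of hippocampal field CA2 and thalamic cells. Aggrecan is the proteoglycan most closely tied to nets, versican is also found in diffuse matrix and at nodes of Ranvier, and the link protein of HAPLN4 is known at synapses on net-bearing cells and at nodes.

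All values are log2 intensities, so a difference of 1 is a 2-fold difference, and the level of 1 gene cannot be set against that of another because each probe set has its own scale. ACAN ran from a group mean of 5.08 ± 0.62 in CA1 to 9.59 ± 0.44 in M1 layer 6 (SD, n = 4 each), a 22.7-fold range. The lowest ACAN arrays of CA1 (4.51) and DG (4.73) lay below the median of all probe sets (4.76). The low end of this range is thus near the level required for testing. VCAN ran from 6.73 ± 0.37 in the parvocellular LGN to 11.33 ± 0.19 in DG, and HAPLN4 from 5.58 ± 0.06 in DG to 9.72 ± 0.20 in CA2 (SD, n = 4 each). The ranges of ACAN, VCAN and HAPLN4 were wider than those of 97.4%, 97.7% and 96.7% of the 10300 genes above the level required for testing.

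Most of the variation of each gene lay between region groups. Region group accounted for 90.9% of the variation of ACAN over the arrays, 77% of that of VCAN and 83.4% of that of HAPLN4, and animal for 2.51%, 4.47% and 4.08%. Of the 56 steps between neighbours in the order of group means, none for ACAN, 1 for VCAN and 2 for HAPLN4 exceeded the larger SD of the 2 groups. For VCAN this step was the gap of 2.01 between DG and the next group, ACG layer 6 at 9.32 ± 0.75 (SD, n = 4). Below DG, the next VCAN groups were layer 6 of DLPFC (9.07), A1 (8.77) and OFC (8.72). With 57 groups in order most steps are small, so the count of steps cannot tell a graded order from a clustered one.

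ACAN had 3 probe sets, VCAN 5 and HAPLN4 1. The second ACAN probe set followed the first over the 57 group means (r = 0.97) and the third did not (r = -0.06). The VCAN probe sets followed the first with r between 0.21 and 0.89, and 3 of the other 4 were likewise highest in DG. These other 4 averaged 6.73, 5.99, 3.81 and 3.22, and those at 3.81 and 3.22 were below the level required for testing (4.76). The one at 3.81 was among those highest in DG. All 5 entered the mean of all VCAN probe sets used below. In the control hybridisations, arrays labelled as CA3 control had an SD of 0.07 for ACAN, 0.10 for VCAN and 0.19 for HAPLN4 (n = 9), the whole brain pool had 0.13, 0.17 and 0.21 (n = 15), and arrays labelled as MT control had 0.12, 0.30 and 0.17 (n = 3). The median SD within region groups, whose arrays came from different animals, was 0.38 for ACAN, 0.37 for VCAN and 0.40 for HAPLN4. The CA3 and MT control labels carry the code of a single animal, male C, so these SDs measure different things. The CA3 control arrays averaged 8.24 for ACAN, while the CA3 region group averaged 7.10 ± 0.20 (SD, n = 4). The CA3 array of male C in that group was at 6.88. Whether the dissection was the same was not in the labels. The poly-A control probe sets, added RNAs that follow amplification, averaged 9.87 in V1 and 9.71 in V2 arrays and from 8.34 to 9.18 elsewhere.

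The first comparison asked how the genes vary between layers. Averaged over the 6 areas with an undivided layer 4, ACAN increased with depth, HAPLN4 was highest in layer 3, and VCAN was nearly flat through layer 5 and higher in layer 6. Single areas departed from this average: ACAN in MT averaged 8.71 in layer 5 and 8.56 in layer 6, and HAPLN4 in A1 averaged 7.07 in layer 3 and 7.61 in layer 4. VCAN in MT averaged 7.42 in layer 2 and 7.39 in layer 6. Of all genes tested, 6.56% differed among layers 2 to 6 at an adjusted p under 0.05 with a range of at least 1 between fitted means, the rule used for every call. All 3 genes were called.

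ACAN, averaged over areas within each animal after centring on each area, stood at 5.67, 5.86, 6.16 and 5.89 in layer 2 of male A, male C, female D and female E, and at 7.50, 7.15, 7.07 and 7.29 in layer 3. It stood at 7.93 to 8.06 in layer 4, at 8.30 to 8.34 in layer 5 and at 8.94, 9.07, 8.82 and 8.82 in layer 6. No animal's value in one layer overlapped those of another layer. Against the mean of the other layers, layer 6 was higher by 1.55 ± 0.08 and layer 2 was at -2.22 ± 0.08 (SE, 4 of 4 animals each; limma, adjusted p = 1.9e-11 and 9.3e-14). The share of all genes called was 1.61% for layer 6 and 2.69% for layer 2. Layer 5 was at 0.80 ± 0.08 and layer 3 at -0.53 ± 0.08, both past the adjusted p alone, where 0.68% and 0.641% of genes were called. With the mean of its 3 probe sets, ACAN was at 0.93 in layer 6, no longer called, and at -1.29 in layer 2.

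HAPLN4 stood at 6.26 to 6.53 in layer 2, at 8.70, 7.87, 7.88 and 8.08 in layer 3, at 7.59 to 7.73 in layer 4, at 7.55 to 7.78 in layer 5 and at 6.49, 6.95, 7.12 and 6.91 in layer 6 of the same animals. Layer 2 overlapped layer 6 but lay below layers 3, 4 and 5 in all 4 animals. Against the other layers it was lower, at -1.19 ± 0.12 (SE; limma, adjusted p = 1.2e-07). Layer 3 was at 0.98 ± 0.12, just short of the size required, and layer 6 at -0.59 ± 0.12. The range between layers 3 and 2 was 1.74 (adjusted p = 6.1e-08). Layers 3, 4 and 5 lay close together apart from male A, whose layer 3 value of 8.70 was the highest.

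VCAN stood at 8.38, 8.62, 8.32 and 8.48 in layer 6 of the same animals and between 7.24 and 7.67 in all of layers 2 to 5, with no overlap. Layer 6 was at 0.99 ± 0.07 against the other layers (SE, 4 of 4 animals; limma, adjusted p = 2.6e-09), just short of the size required. The range over layers was 1.09, and the call was lost with the second probe set (0.72), with the mean of all probe sets (0.50) and without male C (0.998). The layer 6 groups spread widely between areas, with 8.33, 9.20, 10.04 and 9.72 in ACG of male A, male B, female D and female E, against 7.54, 7.45, 7.39 and 7.19 in MT of male A, male C, female E and female F. Within layer 6, VCAN was called among the areas (range 1.99; limma, adjusted p = 0.014, where 16.7% of all genes were called), but the call was lost without male C and without female E.

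Layers 5 and 6 were then set against layers 2 and 3 over all 10 areas, in 5 animals; 2.13% of all genes were called. For ACAN the deep layers averaged 8.65, 8.05, 8.42, 8.63 and 8.62 in male A, male B, male C, female D and female E, against 6.91, 5.73, 6.27, 6.83 and 6.71 in the upper layers. The difference was 1.98 ± 0.08, or 3.95-fold (SE, 5 of 5 animals; limma, adjusted p = 3.2e-07), and 1.09 with the mean of its probe sets, still called. VCAN was at 0.69 ± 0.10 (5 of 5 animals, adjusted p = 0.00061), not called by size, and HAPLN4 at -0.01 ± 0.09 (adjusted p = 0.96). Over the deep minus upper difference by area, 2.7% of genes were called and none of the 3 (adjusted p = 0.099 for ACAN, 0.36 for VCAN and 0.16 for HAPLN4).

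**Figure D1:**
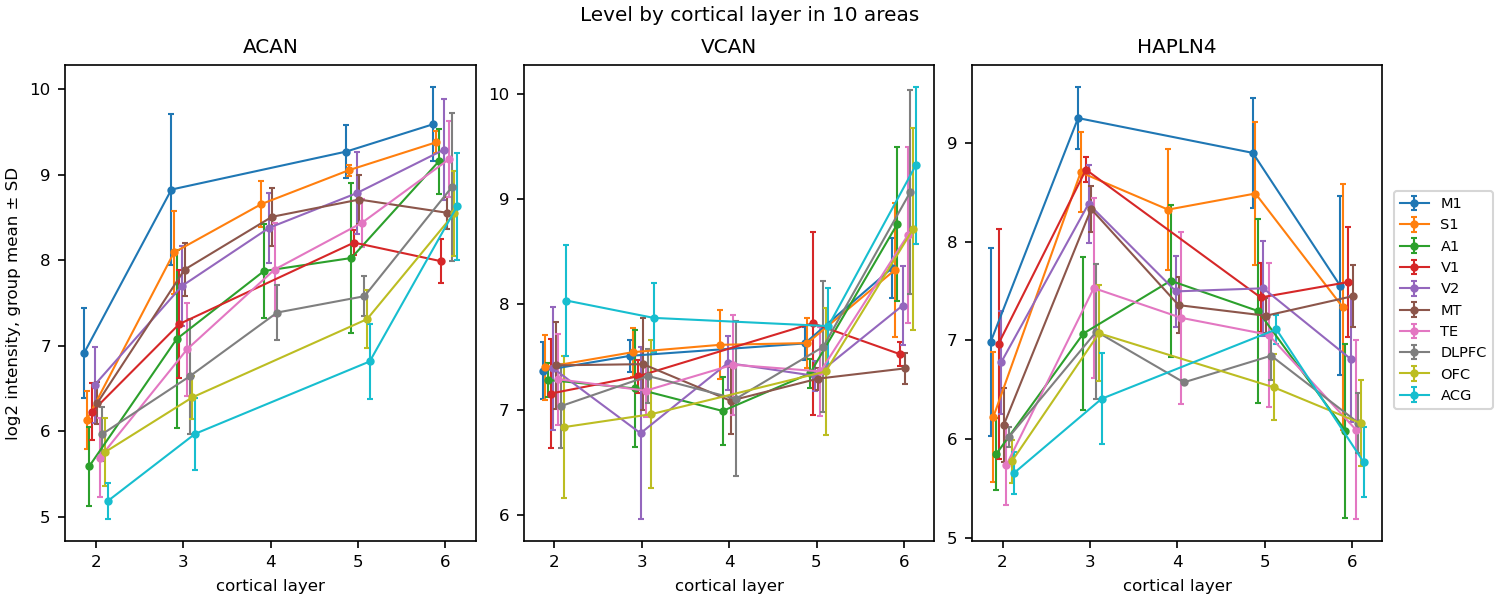
Group means of ACAN, VCAN and HAPLN4 (log2 intensity, vertical axis) by cortical layer (horizontal axis), 1 line per area, with SD over 3 or 4 animals as bars. ACAN rises with depth in most areas and HAPLN4 peaks in layer 3 in most areas. VCAN stands apart in layer 6 in most areas, but not in V1 or MT. M1, ACG, OFC and V1 have no layer 4 point, and their lines join layers 3 and 5.

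Markers of several cell types moved with depth too. Of the 4 measured myelin genes, 3 were higher in layer 6 (UGT8 by 1.44 ± 0.10, MAL by 1.31 ± 0.04 and MBP by 1.25 ± 0.10, SE). The same 3 were lower in layer 2. Of all genes, 0.932% were called higher in layer 6 and 1.45% lower in layer 2. The summed level of these 4 myelin genes (log2, mean over arrays) was 12.68, 13.09, 13.33, 13.44 and 13.71 in layers 2, 3, 4, 5 and 6. It ranged from 12.11 to 13.12 over layer 2 arrays and from 12.99 to 14.20 over layer 6 arrays. Summed levels added linear intensities, so the brightest probe sets of a list weighed most. The list of oligodendrocyte precursor genes was measured without PDGFRA and OLIG1, which left CSPG4, OLIG2, SOX10 and GPR17. The summed level of these 4 was 8.89 in layer 2 and 9.89 in layer 6, ranging from 8.55 to 9.41 and from 9.21 to 10.52. Whether this sum marks precursors apart from myelinating cells was not tested. The summed level of the 7 measured fast-spiking interneuron genes was highest in layer 4, at 11.26, 11.95, 12.32, 11.86 and 11.16 in layers 2 to 6. PVALB, parvalbumin itself, was lower in layer 6 (-1.84 ± 0.12) and in layer 2 (-1.13 ± 0.12). The part of these cell types in the results was not tested, and with bulk tissue fewer cells of a type and less RNA per cell cannot be told apart.

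The second comparison asked how the areas differ, on the mean of layers 2, 3, 5 and 6. ACAN and HAPLN4 were both highest in M1 and lowest in ACG, and VCAN was not called. Of all genes, 9.2% were called among areas. ACAN had a range of 2.04 (limma, adjusted p = 1.2e-09), HAPLN4 of 1.97 (6.2e-09) and VCAN of 0.75 (0.011). The ACAN range was 1.19 with the mean of its probe sets, and within the wide control set (DLPFC, MT, OFC and V2) the ranges were 1.03 for ACAN and 1.03 for HAPLN4, all called.

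ACAN averaged 8.60, 8.01 and 9.06 in M1 of male A, male C and female D, and 6.41, 6.46, 7.03 and 6.71 in ACG of male A, male B, female D and female E. M1 was higher than the other areas by 1.13 ± 0.13 in 3 of 3 animals, and ACG was lower, at -1.13 ± 0.12 in 4 of 4 (SE; limma, adjusted p = 8.8e-07 and 1.7e-08). The shares of all genes called were 0.253% for M1 and 1.19% for ACG. S1 was at 0.63 ± 0.11, V2 at 0.54 ± 0.11 and OFC at -0.63 ± 0.12, past the adjusted p but not the size, with 0.0389%, 0.496% and 0.136% of genes called there. Without female D, M1 was at 0.97 and no longer called, with the second probe set M1 was at 0.91 and ACG at -0.94, and with the mean of all probe sets M1 was at 0.62 and ACG at -0.70, none of them called.

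HAPLN4 averaged 8.12, 7.50 and 8.68 in M1 of male A, male C and female D, and between 6.05 and 6.37 in the 4 animals of ACG. M1 was higher by 1.20 ± 0.16 (SE, 3 of 3 animals; limma, adjusted p = 1.0e-05), and ACG was at -0.99 ± 0.15. S1 was at 0.71 ± 0.14 and V1 at 0.70 ± 0.14, while OFC was at -0.78 ± 0.15 and DLPFC at -0.61 ± 0.15. In V1 1.2% of genes were called and in DLPFC 0.0486%. In S1, male A at 6.88 lay below female D at 8.24, female E at 7.85 and male C at 7.80, and in TE the values ran from 6.03 to 7.48. VCAN in ACG stood at 8.0, 8.54, 8.46 and 8.03 in male A, male B, female D and female E, and ACG was at 0.57 ± 0.13 against the other areas.

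**Figure D2:**
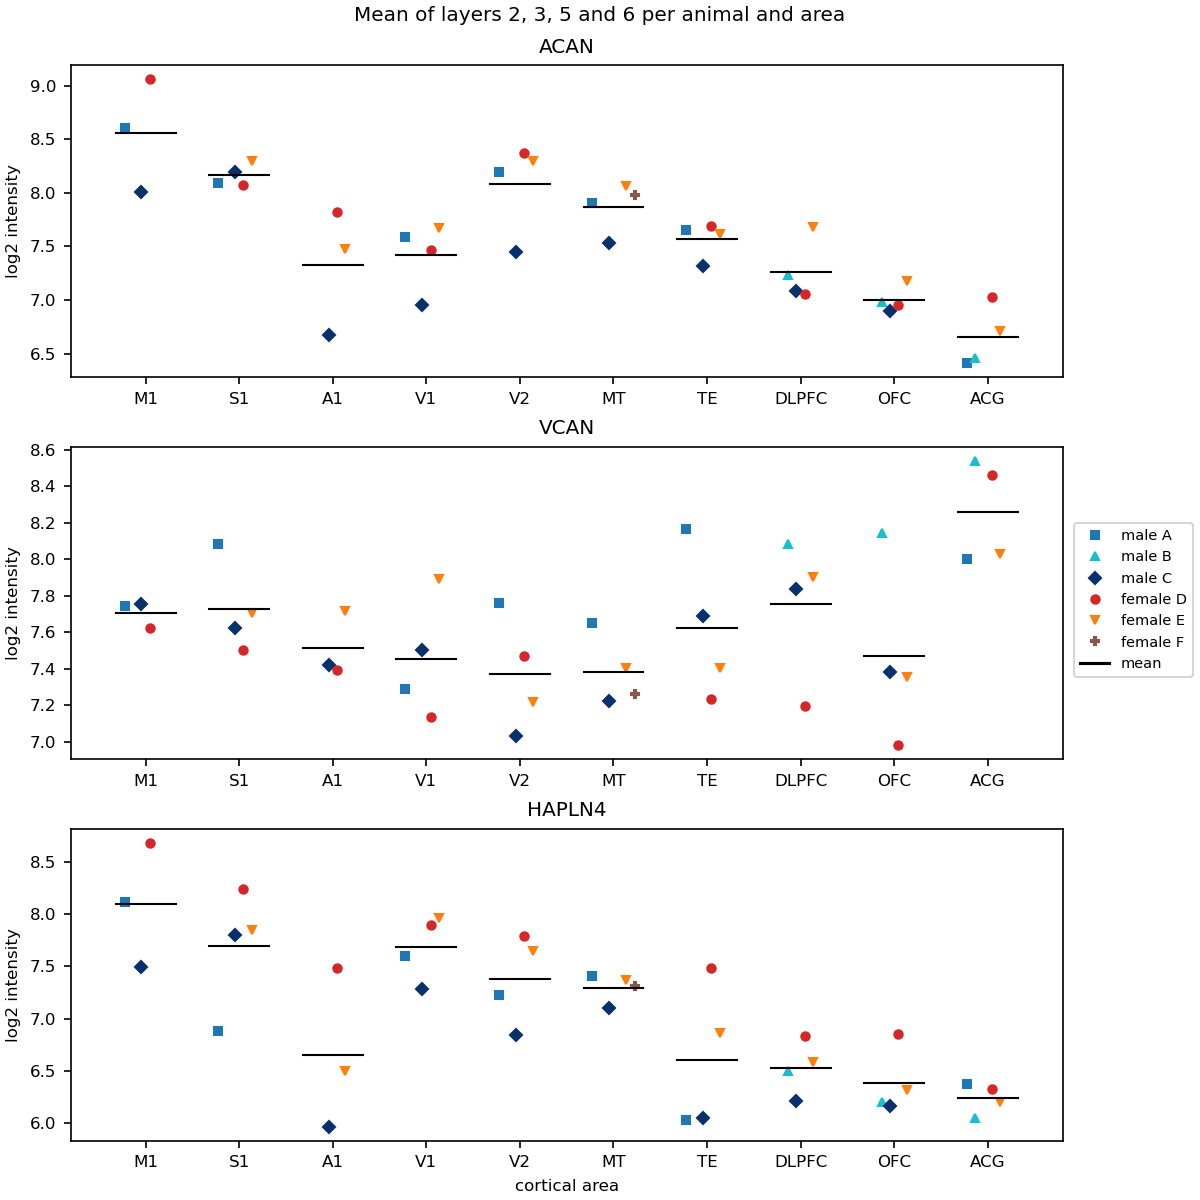
Mean of layers 2, 3, 5 and 6 (log2 intensity, vertical axis) of ACAN, VCAN and HAPLN4 in each animal (symbols) by area, with the mean over animals as a line. The M1 values of ACAN and HAPLN4 all lie above the ACG values, which is not so for VCAN.

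V1 and V2 were set against ACG, OFC and DLPFC. HAPLN4 was higher in the visual areas by 1.19 ± 0.13, or 2.28-fold, in 4 of 4 animals (SE; limma, adjusted p = 1.4e-08, with 1.48% of genes called). ACAN was at 0.79 ± 0.10 and VCAN at -0.31 ± 0.12, both not called. With the poly-A level as a covariate HAPLN4 was at 0.93 ± 0.24 and not called, and ACAN was at 0.44 (adjusted p = 0.12). Within the wide control set of areas HAPLN4 was at 0.91 and not called.

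The primary areas M1, S1, A1 and V1 were set against ACG, OFC, DLPFC and TE, a contrast for which 0.175% of genes were called. HAPLN4 was higher by 1.12 ± 0.10, or 2.17-fold, in 4 of 4 animals, from 0.94 to 1.33 (SE; limma, adjusted p = 4.2e-09). ACAN was at 0.77 ± 0.08 (limma, adjusted p = 5.8e-08) and VCAN at -0.08 ± 0.10. Not every primary area was higher. The fitted means of HAPLN4 were 8.09, 7.65, 6.54 and 7.64 in M1, S1, A1 and V1. They were 6.12, 6.31, 6.46 and 6.57 in ACG, OFC, DLPFC and TE, so A1 lay within the range of these areas. The fitted means of ACAN in A1 (7.33) and V1 (7.42) lay below that of TE (7.57). Among the markers, PVALB was higher in the primary areas by 1.91 ± 0.19, and NEFH, the heavy neurofilament of large neurons, by 1.02 ± 0.09. None of the 4 myelin genes was called there. Their summed level was 13.56, 13.43, 13.25 and 13.16 in M1, S1, A1 and V1. It was 12.89, 13.00, 13.06 and 13.26 in ACG, OFC, DLPFC and TE. ACG, OFC and DLPFC thus lay below all of the primary areas, and TE lay within their range. HAPLN4 kept its call within the narrow control set of areas (A1, ACG, M1, S1, TE and V1; 1.14) and without V1 (1.06).

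Within single layers, the areas differed for ACAN and for HAPLN4 in each of layers 2 to 6, where 18.6%, 12.7%, 15%, 12.7% and 16.7% of genes were called in that order. In layer 3, ACAN of M1 stood at 8.90, 7.56, 9.30 and 9.55 in male A, male C, female D and female E, and was higher than in the other areas by 1.67 ± 0.23 (limma, adjusted p = 4.0e-05, with 1.24% of genes called). In layer 5 of ACG, ACAN stood at 6.53, 6.87, 7.41 and 6.46 in male A, male B, female D and female E, at -1.68 ± 0.17 (adjusted p = 4.9e-08, with 1.77% called). HAPLN4 in layer 5 of M1 stood at 8.11, 8.97, 9.41 and 9.11 in male A, male C, female D and female E, higher by 1.65 ± 0.19 (adjusted p = 9.8e-07, with 0.837% called). In layer 3, HAPLN4 was at 1.55 ± 0.22 in M1 and at -1.75 ± 0.23 in ACG, where 2.28% of genes were called. S1 was also higher for HAPLN4 in layer 5 (1.20 ± 0.19) and layer 4 (1.1 ± 0.20), the first not called without male C, the other not without male C or female E. ACAN in layer 6 of V1 was lower than in other areas, at -1.03 ± 0.25, but at -0.97 without male C and -1.0 without female D. The shares of genes called were 0.292%, 0.293% and 2.82% for these 3 contrasts. The HAPLN4 call among areas in layer 2 was lost without male A, female D or female E, and the ACAN call in layer 6 without male A or female E. The ACAN call in layer 2 was lost with the second probe set (range 1.04, adjusted p = 0.13).

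V1, with 8 sampled layers in 4 animals, was examined on its own, and 14.7% of genes were called among its layers. ACAN was lowest in layer 2, at 6.27, 5.75, 6.41 and 6.50 in male A, male C, female D and female E, and highest in layer 4B, at 8.77, 8.92, 8.93 and 9.10. Layer 4B was higher than the other layers by 1.18 ± 0.15 and layer 2 was at -1.90 ± 0.15 (SE, 4 of 4 animals each; limma, adjusted p = 1.2e-05 and 1.1e-09). The shares of genes called were 1.69% for layer 4B and 3.95% for layer 2. With the mean of its probe sets ACAN was at 0.83 in layer 4B, no longer called, and at -1.01 in layer 2, and with the second probe set layer 2 was at -1.19. Layer 4B is the sublayer that carries the stria of Gennari, a band of myelinated fibres. The myelin genes UGT8, MBP and MAL were highest in layer 4B too, with ranges over the V1 layers of 3.30, 2.21 and 2.17.

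HAPLN4 in V1 was highest in layer 4A, at 8.39, 8.96, 9.15 and 8.75 in male A, male C, female D and female E, with layers 3 and 4B close to it at means of 8.73 and 8.59. Its range was 1.84 (limma, adjusted p = 0.0018). Layer 2 was called at -1.22 ± 0.28, but its values of 7.92, 5.28, 7.15 and 7.52 held 1 low array, and without male C it was at -0.60 (adjusted p = 0.12). VCAN was highest in layer 4Cb, the main target of parvocellular input, at 8.64, 8.72, 8.60 and 8.77 in the 4 animals, and lowest in layer 2. Its range was 1.53 (adjusted p = 0.0011; adjusted p = 0.10 with the second probe set and a range of 0.63 with the mean of all probe sets), and layer 4Cb was at 0.92 ± 0.21 against the others (4 of 4 animals, adjusted p = 0.0059), short of the size required, with 1.77% of genes called. In layer 5 of V1, VCAN values were far apart, at 7.02, 8.18, 7.21 and 8.88.

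**Figure D3:**
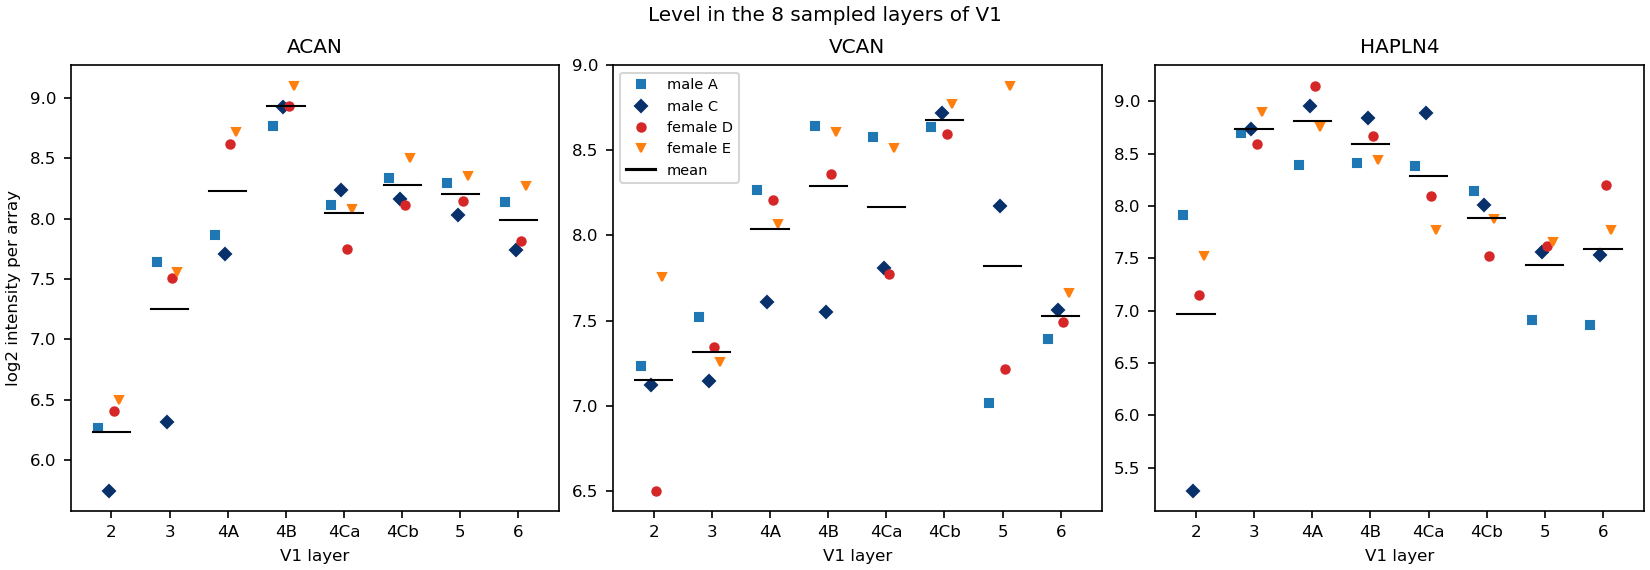
Level of ACAN, VCAN and HAPLN4 (log2 intensity per array, vertical axis) in the 8 layers of V1, 1 symbol per animal with the mean as a line. ACAN peaks in 4B, HAPLN4 from layers 3 to 4B and VCAN in 4Cb, where its 4 arrays lie between 8.60 and 8.77.

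In the hippocampus, VCAN marked DG, HAPLN4 was highest in CA2 and lowest in DG, and ACAN was higher in CA2 and CA3 than in CA1 and DG. Among the fields, 19.1% of genes were called. VCAN stood at 11.33, 11.34, 11.10 and 11.57 in DG of male A, male C, female D and female E, and between 6.30 and 7.61 in all arrays of CA1, CA2 and CA3. DG was higher than the CA fields by 4.22 ± 0.19, or 18.6-fold (SE, 4 of 4 animals; limma, adjusted p = 2.0e-10, with 10.2% of genes called), and by 2.36 with the mean of its probe sets. Without DG, the 3 CA fields spanned 0.46 and were not called (adjusted p = 0.34).

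HAPLN4 stood at 9.45, 9.87, 9.87 and 9.70 in CA2 of male A, male C, female D and female E. The values were 8.96, 8.91, 8.28 and 7.76 in CA1, 7.35, 8.30, 7.28 and 6.42 in CA3, and 5.52, 5.62, 5.54 and 5.64 in DG. CA2 lay above every other field without overlap, and DG below. CA2 was higher by 2.59 ± 0.20, or 6.02-fold, and DG was at -2.93 ± 0.20 (SE, 4 of 4 animals each; limma, adjusted p = 5.0e-07 and 2.0e-08), where 2.79% of genes were called for CA2. Without DG in the fit, CA2 was still higher than CA1 and CA3, by 1.81 (adjusted p = 0.00026).

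ACAN stood at 7.13, 6.05, 7.59 and 7.33 in CA2 and at 7.32, 6.88, 6.99 and 7.22 in CA3 of male A, male C, female D and female E. In the other fields it stood at 5.15, 4.51, 5.93 and 4.75 in CA1 and at 5.04, 5.06, 5.56 and 4.73 in DG. CA2 was higher by 1.26 ± 0.19 and CA3 by 1.37 ± 0.19, while CA1 was at -1.32 ± 0.19 and DG at -1.31 ± 0.19 (SE; limma, adjusted p = 0.00018, 9.2e-05, 0.0001 and 3.2e-05). Shares of genes called were 2.79% for CA2, 2.93% for CA3 and 3.48% for CA1. With the second probe set the same contrasts were between 0.65 and 0.83 in size, and with the mean of all probe sets between 0.54 and 0.83, and none was called; without DG in the fit CA2 was at 0.93 and not called. MBP was at 1.58 ± 0.16 in CA2 and 1.68 ± 0.16 in CA3 against -1.12 ± 0.16 in CA1 and -2.14 ± 0.16 in DG. PVALB was higher in CA2 by 1.92 ± 0.20 and lower in DG.

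In the LGN, few genes differed between divisions (0.395% called), and none of the 3 was called. ACAN stood at 9.58, 8.90, 9.19 and 9.58 in the koniocellular division of male A, male C, female D and female E, above the 8.10 to 8.73 of the magnocellular and parvocellular arrays. The koniocellular difference was 0.84 ± 0.13 for ACAN (SE, 4 of 4 animals; limma, adjusted p = 0.005) and 0.69 ± 0.13 for VCAN (4 of 4 animals, adjusted p = 0.011), both short of the size required, with 0.0867% of genes called. HAPLN4 was within 8.67 to 9.32 in all 12 arrays. Magnocellular minus parvocellular differences were -0.16 ± 0.15 for ACAN, 0.22 ± 0.14 for VCAN and 0.25 ± 0.13 for HAPLN4, with adjusted p of 0.80, 0.67 and 0.52 and 0.299% of genes called. The range of ACAN over the divisions was 0.92, and it passed the size required without male C (1.01) and without female D (1.04).

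**Figure D4:**
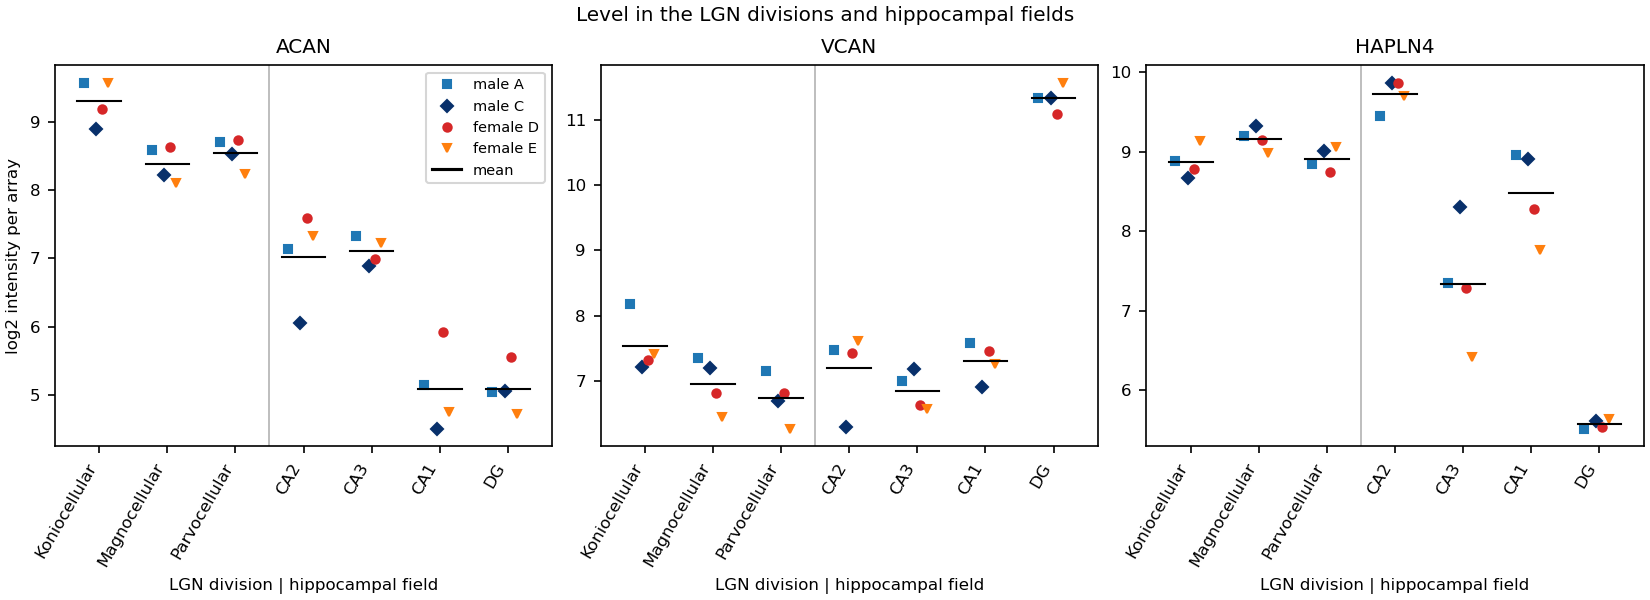
Level of ACAN, VCAN and HAPLN4 (log2 intensity per array, vertical axis) in the LGN divisions (left of the grey line) and hippocampal fields (right), 1 symbol per animal with the mean as a line. VCAN in DG and HAPLN4 in CA2 stand above all other hippocampal arrays.

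The 3 structures were compared as 1 mean per animal in the 4 animals with all of them, a comparison in which 18% of genes were called. ACAN was at 8.96, 8.55, 8.85 and 8.64 in the LGN, at 6.16, 5.62, 6.52 and 6.01 in the hippocampus and at 7.86, 7.47, 7.82 and 7.96 in the neocortex of male A, male C, female D and female E. The LGN exceeded the hippocampus by 2.67 ± 0.10, or 6.38-fold, and the hippocampus was below the neocortex at -1.70 ± 0.10 (SE, 4 of 4 animals each; limma, adjusted p = 7.1e-10 and 1.6e-07), with 14.4% and 6.07% of genes called. LGN minus neocortex was 0.97 ± 0.10, just under the size required, but it was called with quantile normalization (1.09) and without female E (1.07). With the mean of the ACAN probe sets, hippocampus minus neocortex was -0.96 and not called, and LGN minus hippocampus was 1.67.

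HAPLN4 was at 8.98, 9.0, 8.90 and 9.06 in the LGN, at 7.82, 8.18, 7.74 and 7.38 in the hippocampus and at 7.03, 6.91, 7.58 and 7.29 in the neocortex of the same animals. The LGN was higher than the neocortex by 1.78 ± 0.16 (limma, adjusted p = 2.0e-06, with 10.5% of genes called) and higher than the hippocampus by 1.20 ± 0.16. Against V1 alone in place of all neocortical areas, the LGN difference was 0.94 and not called, and without DG the LGN minus hippocampus difference was 0.47 and not called. VCAN was lower in the LGN than in the hippocampus, at -1.10 ± 0.11, but this was -0.04 without DG, -0.95 without female E and -0.58 with the mean of its probe sets, none called. The fast-spiking list was at 13.49 in the LGN, 10.44 in the hippocampus and 11.79 in the neocortex (summed level, log2). PVALB alone averaged 12.67 in the koniocellular, 12.65 in the magnocellular and 12.74 in the parvocellular LGN, and so weighed heavily in the LGN sum. Which LGN cells carried it was not tested. The myelin list was at 13.62 in the LGN, 12.73 in the hippocampus and 13.26 in the neocortex.

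Between sexes, no gene was called by limma (0% of 10289; 2 animals each), while 725 genes had an unadjusted p under 0.05 and 2 were called with the second probe set. HAPLN4 averaged 7.43 and 7.49 in male A and male C, and 8.06 and 7.78 in female D and female E, over the groups that held all 4 animals. The male minus female difference was -0.46 ± 0.11 (SE; limma, unadjusted p = 0.011, adjusted p = 0.58). ACAN was at -0.29 ± 0.16 and VCAN at 0.15 ± 0.14.

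The group means of other genes were set beside those of the members as a description, over 57 groups that share animals. How the groups fell into amplification batches was not given. ACAN was closest to MYRF, a transcription factor of myelinating oligodendrocytes (r = 0.981), followed by CARNS1, ADAMTS4, a protease that cleaves aggrecan (0.980 each), MAL (0.976), BCAS1, ERBB3, ATP5MC1 and MBP, myelin basic protein (0.972). It was farthest from RIN1 (-0.862), LAMB1 and DIAPH2. Among the 50 neocortical groups, the correlation of ACAN with PVALB was 0.296 and that with MBP was 0.971. The second ACAN probe set gave 0.930 with MBP and 0.973 with MYRF over the 57 groups, against 0.382 with PVALB. The part of oligodendrocytes in the array level of ACAN was not tested.

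HAPLN4 followed another set. Its closest genes were DMAC2 (0.877), GBA2 (0.851), NEFH (0.828), ETHE1, NT5DC1, SDR39U1, TRAPPC1 and RELL2, and its farthest were ANKRD6 (-0.834), SCN3A and CDH9. With PVALB its correlation was 0.725 over the 57 groups and 0.838 over the 50 neocortical ones. With BCAN, the brain-enriched proteoglycan brevican, it was 0.649 and 0.871. In the neocortex alone, VAMP1, KCNA2, PIDD1 and BCAN entered its closest 8. After removal of group and animal means, HAPLN4 still correlated with NEFH at 0.712 and with PVALB at 0.626 over the 225 arrays, and ACAN with MBP at 0.527.

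VCAN was closest to NANOS1 (0.708), TBL1X, INSM1, MAML2, TXNIP, FIBIN, CA12 and CRTC3, and only 1 of these 8 stayed among the closest 8 over the neocortical groups. Its farthest genes were FNDC4 (-0.683), DBNDD1 and BRICD5. Between the members, the correlations over 57 groups were 0.422 for ACAN with HAPLN4, 0.137 for ACAN with VCAN and -0.319 for HAPLN4 with VCAN, and over the neocortical groups 0.479, 0.490 and -0.138.

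**Figure D5:**
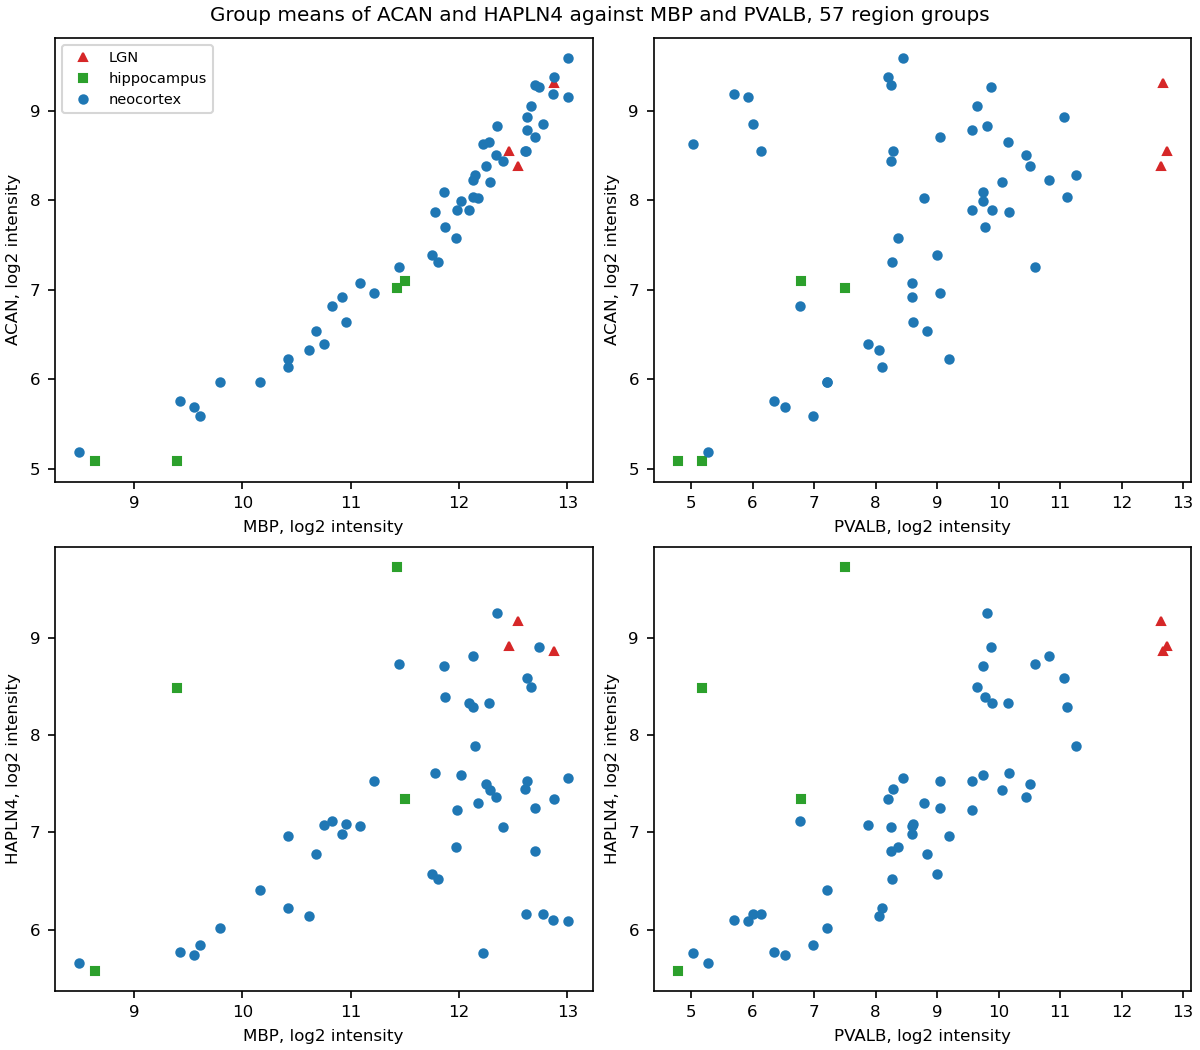
Group means (log2 intensity) of ACAN (top row) and HAPLN4 (bottom row) against MBP (left column) and PVALB (right column) in the 57 region groups, coloured by structure. ACAN lies on a narrow line with MBP (r = 0.972) and HAPLN4 is closer to PVALB (0.725) than to MBP (0.457).

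Of the 18 net and matrix partners, 16 had a probe set and 10 were tested among layers, of which 3 were called, where 6.56% of all genes were: NPTX2, a pentraxin of synapses, with a range of 2.22, HAPLN2, a link protein of nodes of Ranvier, with 1.54 and highest in layer 6, and HAPLN1, a link protein of nets, with 1.46 and highest in layer 3. The median range of the 10 was 0.21, against 0.26 over all genes. NCAN and FBLN2 had no single-symbol probe set. TNR had group means from 3.86 in A1 layer 2 to 4.54 in ACG layer 2, below the level required for testing. The counts thus do not cover NCAN or TNR. HAPLN1 was lower in the deep layers, at -1.04 ± 0.08, where ACAN was higher. BCAN was not called among layers (0.41) or areas (0.78), and in the primary areas it was at 0.47 ± 0.06 (limma, adjusted p = 1.7e-06), below the size required.

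Among the 12 tested genes of chondroitin sulfate synthesis, 1 was called among layers (6.56% of all genes were), UST, a sulfotransferase, with a range of 2.39 and highest in layer 5. In DG, where 5.42% of all genes were called higher and 4.82% lower, 2 of 13 were higher and 1 lower, with UST at 3.90 ± 0.13 and CHSY3 at 1.5 ± 0.19. Of the 5 tested receptors, 3 were called among layers (PTPRS with a range of 1.35, PTPRF with 1.29 and PTPRD with 1.16) and 2 among areas (PTPRS with 1.98 and RTN4R with 1.07), against 6.56% and 9.2% of all genes. In DG 1 of the 5 was called, against 10.2% of all genes: PTPRS, a receptor of chondroitin sulfate chains, was higher in DG by 5.45 ± 0.16. Of the 14 tested proteases and inhibitors, 4 were called among layers, against 6.56% of all genes, led by ADAMTS4 with a range of 3.45 and highest in layer 6. Among areas, where 9.2% of all genes were called, 4 of 14 were, and ADAMTS4 was highest in M1 and lowest in ACG, as ACAN was. In the LGN, ADAMTS5, another aggrecan-cleaving protease, was higher than in the neocortex by 4.62 ± 0.12.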

How the data were processed

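The authors deposited log10 normalized intensities per probe set: per the file headers, arrays were processed by RMA within each amplification batch in Matlab 2007b, and each probe set was then scaled between batches on a common whole brain pool. The 52865 probe sets were converted from log10 to log2, and design choices written for log2 values were kept. Which array belonged to which batch was not given in the sources used here, so areas were also grouped by the spread of their hybridisation controls (a narrow set of A1, ACG, M1, S1, TE and V1, and a wide set of DLPFC, MT, OFC and V2). A per-array depth has no meaning here; the number of arrays limits precision. No values of 2 deposited copies differed (4500 compared, equal within 1e-06), and no column was left unmapped (0).

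Values were tested with limma 3.58.1 (in R 4.3.3, with version 1.17.8 of data.table): lmFit and eBayes with animal as a block, Benjamini-Hochberg adjustment over all genes tested, and a call at adjusted p under 0.05 with a log2 change or range of at least 1. A gene was tested when its mean exceeded the median of all probe sets (4.76). Values of 1 animal deviated together (median r 0.174 over 5367 pairs of arrays, against -0.0493 for 19500 pairs from different animals), and labels give each array's animal. Layer contrasts used animals with at least 3 areas, centred per area and averaged per animal. In the area contrasts, the counts of animals rest on the areas each animal had, which differed between animals. The script was tested on simulated data.

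ACAN, VCAN and HAPLN4 and all gene lists were chosen with earlier results of these data known. Named genes were up to 4 called genes per list and comparison by size, and per member the 8 genes with the highest and the 3 with the lowest correlation over group means, LOC symbols passed over; BCAN was named without being called. Correlations carry no p because groups share animals. Alternatives were no block, quantile normalization, no filter, the mean of all probe sets, the second probe set, each animal left out, each control set, a poly-A covariate, V1 for neocortex, and no DG or V1; the last 2 and the second probe set were chosen after seeing the data. Sequences are not shown.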

Additional observations from a re-analysis of the deposited data

Results flagged for a closer look

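In 10 of 162 tests (6.17%; 54 groups of 4 arrays for each of the 3 genes) 1 array lay far from the other 3, its gap to the nearest of them taking up most of the group's range; chance alone gives about 1 in 20. The 10 fell in 8 distinct groups, with MT layer 5 among them for all 3 genes. For ACAN, male C was lowest in MT layer 5 (8.29, the others 8.81 to 8.88), V2 layer 2 (5.87, the others 6.75 to 6.79), DLPFC layer 2 (5.51, the others 6.08 to 6.16) and V1 layer 3 (6.32, the others 7.51 to 7.64). For VCAN, male C was lowest in CA2 (6.30, the others 7.43 to 7.61), and female E was lowest in MT layer 5 (7.14) and highest in M1 layer 3 (7.74, the others 7.43 to 7.44). For HAPLN4, female D was highest in A1 layer 6 (7.41, the others 5.62 to 5.68), male A lowest in V1 layer 5 (6.91, the others 7.56 to 7.65) and male C lowest in MT layer 5 (6.99, the others 7.33 to 7.35).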

How the results depend on the processing

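With no replicate block for animal, 85 of 89 member comparisons kept their direction and their side of the threshold (ACAN among areas 1.90, HAPLN4 among areas 1.86); the other 4 lost their call: ACAN in layer 2 of ACG (-0.94) and of M1 (0.98), and HAPLN4 (-1.04, adjusted p = 0.069) and VCAN (1.01, adjusted p = 0.052) in layer 6 of ACG. With quantile normalization 63 of 64 did, the exception being ACAN in LGN minus neocortex (1.09, called), and with no filter on low genes all 64 did. With the mean of all probe sets, 48 of 64 did. These 64 include comparisons of HAPLN4, which has 1 probe set. Its values could not change with this setting or with the second probe set, so only the ACAN and VCAN comparisons were put to the test. The ACAN calls that the mean of all probe sets ended stand beside their results above. The VCAN ranges of 0.50 over layers 2 to 6, 0.63 over V1 layers and 0.58 over structures were not called, nor were its CA1, CA2 and CA3 contrasts (-0.66, -0.81 and -0.89). With the second probe set, chosen after seeing the data, VCAN was not called over layers 2 to 6 (0.72) or V1 layers (1.87, adjusted p = 0.10) and was called among areas (1.02). HAPLN4 in visual minus frontal areas was 0.93 with the poly-A covariate and 0.91 within the wide control set, both not called. Without DG, also chosen after seeing the data, VCAN was not called among hippocampal fields (0.46) or structures (0.56), and it turned sign in CA1 (0.28), CA2 (0.13) and hippocampus minus neocortex (-0.52). HAPLN4 averaged 7.78 in the hippocampus and 7.20 in the neocortex, a difference that was not called. With V1 alone as neocortex, its hippocampus minus neocortex difference turned sign, at -0.26 and not called. Without DG the same difference was 1.31 and called (limma, adjusted p = 0.00016). Leaving out 1 animal at a time gave 2.94 to 3.14 for ACAN over layers, 1.90 to 2.04 for its deep minus upper difference, 1.97 to 2.18 among areas, 0.74 to 1.04 over LGN divisions (called without male C or female D) and 1.05 to 1.27 for the deep-upper difference by area (called without female D, 1.25). It gave -0.077 to 0.11 for HAPLN4 deep minus upper (-0.077 without female D, 0.11 without male A), 1.00 to 1.18 for VCAN over layers and 0.95 to 1.2 over structures (not called without female E). Counts of genes called ran from 139 to 227 for deep minus upper layers (219 as reported), 75 to 445 for visual minus frontal (152), 14 to 40 for primary minus association (18), 146 to 1045 among areas (946), 7 to 310 for the deep-upper difference by area (278), 651 to 2116 among hippocampal fields (1968), 5 to 59 among LGN divisions (41) and 0 to 2 between sexes (0). The causes of these changes were not tested, except that fewer areas or fields entered the control sets and the fits without DG.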
